A study of Mus musculus with 20 samples.

Results

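The 4 liver libraries of an mRNA-seq series of mouse tissues were compared with the 16 libraries of small intestine, spleen, kidney, and heart. Liver libraries were chosen by the tissue named in the sample labels, which gives 4 of the 20 libraries of the series. Each of the 5 tissues had 2 WT and 2 KO libraries. KO mice lack exons 3 and 4 of Nsun6, which codes for an RNA cytosine-5 methyltransferase. The deletion was made with CRISPR/Cas9 in fertilized eggs of C57BL/6J mice, whereas WT mice carry no deletion. All tissues came from female mice at 8 weeks of age, as the methods of the study state. Nothing in the labels ties a tissue to an animal, so that the p-values measure only the spread between these libraries.

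The liver makes most of the proteins of blood plasma and holds large stores of glycogen. Its hepatocytes turn ammonia into urea, make glucose, ketone bodies, and bile acids, and modify drugs and steroids with cytochrome P450 and conjugating enzymes. They export ketone bodies that other organs burn, and they use sugar-handling enzymes that differ from those of muscle and most other tissues. Sinusoidal endothelial cells, Kupffer cells (the resident macrophages), stellate cells, and bile duct cells make up the rest of the organ. In whole tissue, fewer cells of a type and less RNA per cell cannot be told apart.

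Total counts in the liver were 32890390 and 31182605 in WT replicates 1 and 2, and 32381398 and 44508197 in KO replicates 1 and 2. Over all 20 libraries, the totals ranged from 15897446 to 44508197. The 10 most abundant genes held 17.8% to 26.8% of the counts of a liver library and 5.86% to 14.1% of those of another library. Alb (serum albumin) alone held 11.8% and 18.9% of the counts in the WT livers, and 17.7% and 16.2% in the KO livers. Liver libraries had a count for 20270 to 22037 of the 55401 genes of the table, and the other libraries for 19911 to 25629. Levels are given below as CPM, counts relative to the TMM-scaled library size, or as TPM, which accounts for gene length. TPM are not TMM-scaled, so the ratio of organ means in TPM can differ from the fold change tested. TMM scaling sets the bulk of genes level between libraries, so that CPM in the liver exceed the plain share of counts.

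The spleen WT replicate 2 library stood apart by its transcripts of liver genes. The fold changes of the 3 markers, the counts of called and restricted genes, and the medians of several hepatocyte lists are also given without it. The liver WT replicate 1 library had lower levels of plasma protein genes than the other liver libraries, with a summed 229886 CPM against 406343 to 451955. Its summed heart marker level was 38.9 CPM, against 6.69 to 12.6 in the other livers. The cause of these differences was not tested. Counts of called genes and the median ratio of KO to WT livers are also given without this library.

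Nsun6 (ENSMUSG00000026707, chr2:14995131-15055069 of GRCm38) was counted in all 20 libraries. In the liver it stood at 7.23 and 4.83 CPM in WT and at 4.03 and 4.56 CPM in KO. The other organs ranged from 3.32 CPM in a kidney KO library to 9.82 CPM in a small intestine WT library. The liver did not differ from the mean of the 4 other organs beyond the spread of libraries (log2 fold change -0.19, SE 0.24, edgeR adjusted p = 0.615). The deposited count covers all exons of the gene together, so it does not check the genotype.

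The labelled tissue was checked against 3 liver markers. Alb (ENSMUSG00000029368, chr5:90460897-90476602) stood at 152925, 312626, 277578, and 266150 CPM in liver WT1, WT2, KO1, and KO2, where the number is that of the replicate. It stood at 7.83 to 54.8 CPM in the small intestine, 27.2 to 98.5 CPM in the kidney, and 0.9 to 6.43 CPM in the heart. In the spleen the values were 3.68, 2685, 93.7, and 136 CPM, with the WT replicate 2 library at the highest value outside the liver.

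Both other markers gave the same picture. Apoa2 (ENSMUSG00000005681, chr1:171225054-171226379), an apolipoprotein of high-density lipoprotein, had 10461, 12765, 13120, and 12074 CPM in the livers. Its highest level elsewhere was 174 CPM in spleen WT replicate 2, and 21.9 CPM in the kidney without that library. Ttr (ENSMUSG00000061808, chr18:20665280-20674321), the carrier of thyroid hormone, had 6329, 11546, 10860, and 12359 CPM in the livers. It reached 136 CPM in spleen WT replicate 2 and 28.3 to 89.5 CPM in the kidney. No liver library overlapped with any other library for the 3 genes. Their log2 fold changes against the mean of the 4 organs were 12.84 (SE 0.91) for Alb, 10.85 (SE 0.76) for Apoa2, and 10.30 (SE 0.75) for Ttr. Without spleen WT replicate 2 they were 13.90, 11.75, and 11.18.

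**Figure D1:**
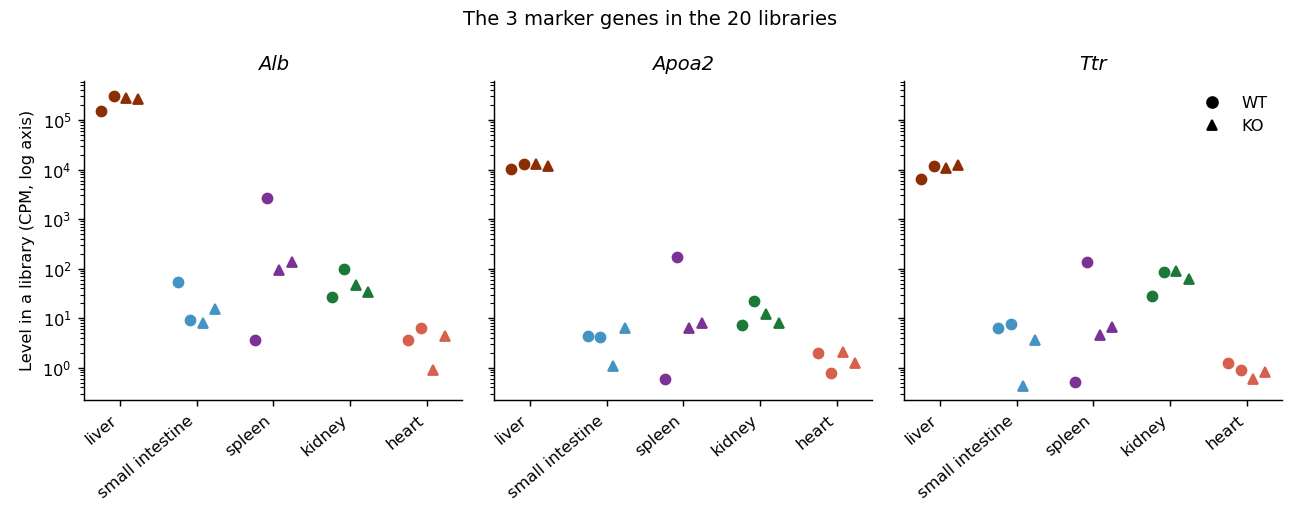
Level of Alb, Apoa2, and Ttr in each of the 20 libraries, in CPM on a log axis, with circles for WT and triangles for KO. The 4 liver libraries lie above the others in each panel, and spleen WT replicate 2 is the highest spleen point, at 2685 CPM for Alb.

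Against the mean of the 4 other organs on the log2 scale, 3811 genes were higher and 4215 were lower in the liver, called where the edgeR adjusted p was under 0.1 and the levels differed over 2-fold. These are 16.5% and 18.2% of the 23159 genes tested. Without liver WT replicate 1, 3581 were higher and 4046 lower. Genes called higher made up 47.5% of the calls by edgeR and 40.4% by DESeq2, which called 3662 higher and 5405 lower. They made up 24% when counts were scaled by the library totals alone and 18.3% with limma on log2(TPM + 0.1). Scaling by totals alone moved the median log2 fold change of all genes by -0.76. Calls near the threshold are therefore relative to the bulk of genes.

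The organs differed from the liver to unequal extents. The liver was higher for 4459 genes (19.3%) and lower for 6257 (27%) against the small intestine. Against the spleen, 5212 genes (22.5%) were higher and 6885 (29.7%) lower. Against the kidney, 3157 genes (13.6%) were higher and 4889 (21.1%) lower. Against the heart, 4577 genes (19.8%) were higher and 5738 (24.8%) lower. Genes higher in the liver than in each of the 4 organs numbered 1295 (5.59%), and those lower than in each numbered 1239 (5.35%). This balance depended on the scaling, with 864 higher and 2467 lower by library totals and 938 and 1915 by limma on log2(TPM + 0.1). All 4 liver libraries lay above all 16 others for 1669 genes (7.21%) and below them for 875 genes (3.78%).

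Liver-restricted genes were those whose lowest liver library had at least 1 CPM and at least 10 times the CPM of the highest of the 16 other libraries. There were 344 of them, which is 2.69% of the 12775 genes with at least 1 CPM in all 4 livers. The values chose these genes, and they are described without a test. In 194 of them, the lowest liver library had over 100 CPM. Just inside the limit stood Cyp21a2-ps and Gm15622, with ratios of 10.08 and 10.1, and just outside it Fndc4 and Urah, with ratios of 9.993 and 9.962.

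The 15 restricted genes with the highest level per length code mainly for secreted proteins. Alb led with 170834 ± 30376 TPM (SD, n = 4 livers), followed by Apoa2 with 36434 ± 2139 TPM. Serpina3k, a serine protease inhibitor, had 17149 ± 5948 TPM, and Mup3, a major urinary protein that binds pheromones, had 16730 ± 4584 TPM. Ttr had 13740 ± 2202 TPM, and Gc, the vitamin D carrier, 11286 ± 1405 TPM. Apoc1 (an apolipoprotein), Trf (the iron carrier transferrin), Ahsg (fetuin A), Hpx (the heme carrier hemopexin), Rbp4 (the retinol carrier), Serpina1b (an alpha-1 antitrypsin), and Fgg (fibrinogen gamma) ranged from 4706 to 9113 TPM. The enzymes Mgst1, a microsomal glutathione transferase, and Rgn, a gluconolactonase of vitamin C synthesis, had 5973 ± 459 and 4110 ± 92.3 TPM. Together the 15 genes held 25.9% of the TPM in liver WT1, 35% in WT2, 33.6% in KO1, and 32.2% in KO2.

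Within the liver, Serpina3k showed how far a single library could stand from its group. It had 8576 CPM in liver WT replicate 1 and 26644 to 28344 CPM in the other 3 livers. Outside the liver it had a median of 1.35 CPM, with 245 CPM in spleen WT replicate 2 as the highest value and 13.5 CPM without that library. Serpina3k shares exon bases with its neighbour Serpina3m, and reads of such gene copies could be split between them. Of the 344 restricted genes, 73 share exon bases with another gene.

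Gene families contributed unequally, beside a share of 1.69% (344 of the 20302 genes with at least 1 CPM in a library). Of the 31 Mup genes with at least 1 CPM in a library, 23 were restricted, and these copies are nearly identical, so that the level of a single Mup gene is uncertain. Of 96 Cyp genes (cytochromes P450), 33 were restricted, as were 9 of 22 Serpina genes, 5 of 17 Ces genes (carboxylesterases), 5 of 9 Sult2a genes (sulfotransferases), and 3 of 4 genes of the complement factor H family. Of 353 solute carrier genes, 10 were restricted (2.83%), and of 2957 predicted genes with a Gm symbol, 59 (2%). In all, 147 restricted genes are on the gene lists used below and 197 are on none. Among the latter were Ces1c, Sult2a2, Rnase4, and Uox (urate oxidase), named after their values were seen, with means of 3116, 2832, 2573, and 1270 TPM.

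The spleen WT replicate 2 library set the limit for most of these genes. It was the highest library outside the liver for 213 of the 344 genes. At a ratio of 100 in place of 10, 23 genes were restricted, and 159 without this library. At a ratio of 10, leaving it out gave 354 genes, which included all 344. Over these 354 genes, the median level in spleen WT replicate 2 was 1.3% of the liver mean, with quartiles of 0.969% and 1.91%. In the other spleen libraries, the median was 0.00624%, 0.0624%, and 0.0937%. It was 0.0284% to 0.0835% in the kidney, 0.00693% to 0.0412% in the small intestine, and 0 to 0.00842% in the heart. The restricted genes held 31.3% to 41.7% of the counts of a liver library, 1.22% in spleen WT replicate 2, and 0.0941% to 0.302% in each of the others.

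**Figure D2:**
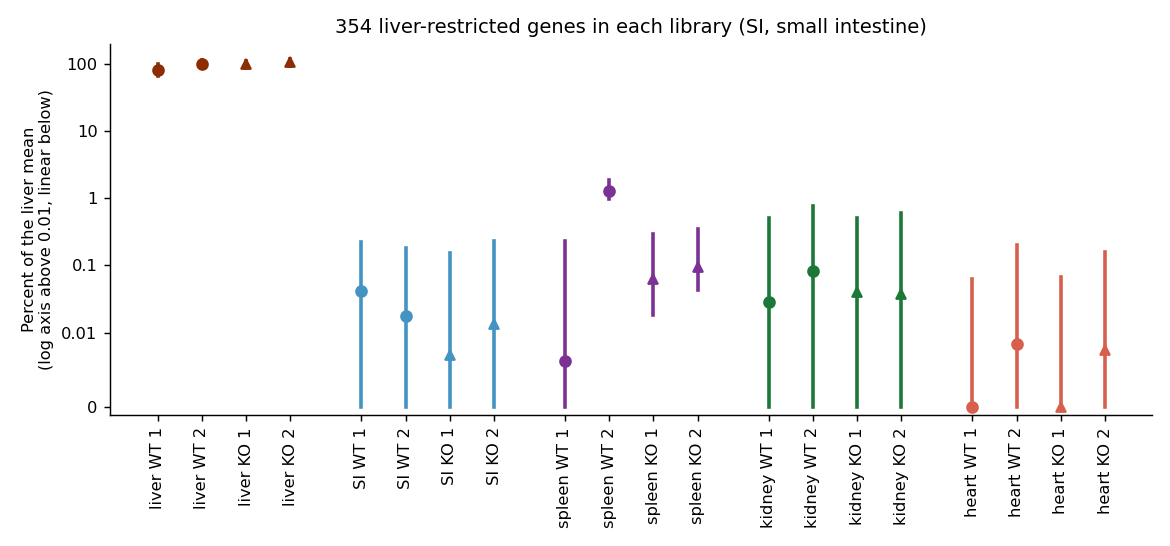
Median level of 354 liver-restricted genes in each library, in percent of the liver mean, on an axis that is logarithmic above 0.01, with bars from the lower to the upper quartile, circles for WT, and triangles for KO. The livers lie between 82.3% and 108%, spleen WT replicate 2 at 1.3%, and the other libraries below 0.1%.

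Without spleen WT replicate 2, the genes with the highest ratio of lowest liver to highest other library were enzymes of hepatocytes. Cyp2c37, a P450 of fatty acid metabolism, had 1340, 1626, 1958, and 2565 CPM in the livers, and at most 0.745 CPM in the 15 other libraries, a ratio of 1799. Cyp7a1, the rate-limiting enzyme of bile acid synthesis, had 704, 599, 468, and 466 CPM, and at most 0.273 CPM elsewhere, a ratio of 1708. In spleen WT replicate 2 they stood at 22 and 3.58 CPM. Akr1c6 (a hydroxysteroid dehydrogenase), Cyp2a12, and Cyp2c70 (a bile acid hydroxylase) had ratios of 1653, 1638, and 1574. The highest values elsewhere rest on few counts, which limits the precision of these ratios.

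The promoters of restricted genes were read from RefSeq in GRCm38.p6, since many of these genes are known targets of the hepatocyte factors HNF1, HNF4, and C/EBP. Of the 344 genes, 228 had an entry, with 292 windows of the 250 bases before a start site. GTTAATNAT, the core of the HNF1 motif, was found on either strand in 4.45% of these windows and in 0.737% of all 32851 windows. CAAAGTCCA, an HNF4 motif, was found in 2.74% against 0.384%, TTGCNNAA, a C/EBP motif, in 21.6% against 9.56%, and TATAAA in 19.5% against 12.4%. Each motif was counted on its own, whether or not it overlapped with another. Many of the windows belong to gene copies that share sequence, and a match is not evidence of binding. Sites from 6 promoters with the HNF1 core and 3 with the HNF4 motif follow to illustrate these stretches, 5′ to 3′ on the strand of the motif, with the motif in capitals.
Alb, chr5:90460828-90460856, plus strand: ggtaagtatgGTTAATGATctacagttat
Gc, chr5:89457932-89457960, minus strand: cagtgacaaaGTTAATGATtaaaacctcc
Fga, chr3:83026097-83026125, minus strand: ccggcaggagGTTAATCATcacccttggc
Slco1b2, chr6:141629442-141629470, plus strand: tgaagagataGTTAATCATcactgaactg
C4bp, chr1:130661664-130661692, minus strand: gctctagtctGTTAATCATtcaccgggac
Gckr, chr5:31297494-31297522, plus strand: gggttcttagGTTAATCATctccatggct
Cyp2c70, chr19:40187332-40187360, minus strand: aggtcaaactCAAAGTCCAaactctgtgt
Cyp8b1, chr9:121916354-121916382, minus strand: agcctctgagCAAAGTCCAagggcaggaa
Cyp2c69, chr19:39886826-39886854, minus strand: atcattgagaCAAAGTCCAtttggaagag

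In the Alb promoter the motif lay 32 bases before the RefSeq start, and in the other 8 it lay 46 to 75 bases before it. Over all HNF1 and HNF4 sites found in restricted genes, the distance ranged from 28 bases in Sult2a5 to 202 bases in Pzp. In Fga, which codes for fibrinogen alpha, the motif lay on the strand opposite to the gene. The stretch of Cyp2c69 was found without a difference in its copy Cyp2c40. Slco1b2 codes for a bile acid and drug uptake transporter and C4bp for a complement inhibitor. Gckr codes for a regulatory protein of sugar handling.

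Lists of genes with known roles were used to describe the organ, each beside the share of all genes called higher (16.5%) or lower (18.2%). The genes that code for plasma proteins were higher in all 38 of 38 tested, with a median log2 fold change of 10.55 against -0.26 for all genes. In the spleen, their summed level was 4632 CPM in WT replicate 2 and 224 to 445 CPM in the other libraries. The calls of this list were the same number without that library, and the median was then 11.45. The medians of the coagulation, bile acid, and cytochrome P450 lists without it were 11.07, 9.32, and 11.08, and those of apolipoproteins, hormones, and the urea cycle were 8.26, 7.58, and 9.31. Orm1, an acute-phase protein, had 3772 ± 401 TPM in the liver and a mean of at most 34.4 TPM in another organ. Hp, which binds free hemoglobin, had 2270 ± 593 TPM, and 39.8 ± 40.3 TPM in the spleen, where WT replicate 2 was the highest library. Lrg1, the member with the smallest difference, had 22.2, 148, 76.9, and 76.9 CPM in the livers and a median of 2.05 CPM elsewhere, with a highest value of 40.1 CPM in a heart library.

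The genes of coagulation and fibrinolysis were higher in 22 of 22, with a median of 10.24, or 9.64 with genes of an organ group at 0 counts set to a floor of 3 counts per library. Against each organ on its own, 20 of 22 were higher in all 4 comparisons, against 5.59% of all genes. F2 (prothrombin) had 463 ± 37.0 TPM in the liver and a mean of at most 3.70 TPM elsewhere. By the rule above, 15 of the 22 were restricted to the liver. F13b, a subunit of the fibrin-linking factor XIII, was 1 of the 2 genes not called against the kidney. It had 340 ± 51.1 TPM in the liver and 307 ± 41.5 TPM in the kidney (log2 fold change 0.98, edgeR adjusted p = 0.483 against the kidney).

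The genes of complement were higher in 21 of 26, with a median of 4.44. C3, the central component, had 1455 ± 153 TPM in the liver and 265 ± 44.5 TPM in the spleen (5.62 against the 4 organs, SE 0.21, edgeR adjusted p = 7.24e-11). C9, of the membrane attack complex, had 321 ± 34.8 TPM in the liver and at most 2.25 TPM on average elsewhere. The C1q chains, which macrophages make, were not called. C1qa had 51.2, 58.6, 77.2, and 74.4 CPM in the livers and a median of 51.3 CPM elsewhere. Cfd (adipsin), made by fat cells, was lower in the liver, with 0.15 ± 0.299 TPM against 136 ± 178 TPM in the heart (edgeR adjusted p = 0.0152 against the 4 organs). Its counts in the livers were too few for a fold change.

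The genes of apolipoproteins and lipoprotein handling were higher in 22 of 22 against the mean, with a median of 7.77, and in 11 of 22 against each organ (5.59% of all genes). Against the small intestine, which also makes lipoproteins, 13 were higher and 3 lower, beside 19.3% and 27% of all genes. Against the kidney 20 were higher, beside 13.6%. Apoa1 had 13631 ± 3644 TPM in the liver and 16851 ± 7503 TPM in the small intestine, a log2 fold change of 0.37 with an edgeR adjusted p of 0.81. Apob, the scaffold of large lipoproteins, had 1060 ± 73.5 TPM in the liver and 857 ± 163 TPM in the small intestine. Apoa4 had 47.1 ± 15.9 TPM in the liver and 1151 ± 1468 TPM in the small intestine, where the libraries differed widely. Apoe, in contrast, had 8343 ± 2197 TPM in the liver and 75.9 ± 36.5 TPM in the small intestine.

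For the urea cycle and amino acid breakdown, 36 of 37 genes were higher, with a median of 8.73, or 7.68 with the floor of 3 counts. Cps1 and Otc, the entry steps of the cycle in mitochondria, were also counted in the small intestine, with 152 ± 36.5 and 103 ± 17.2 TPM, against 1675 ± 839 and 497 ± 60.6 TPM in the liver. Cps1 was highest in liver WT replicate 1, with 2916 TPM against 1062 to 1362 TPM in the other livers.

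The kidney was closest to the liver for amino acid breakdown, with a list median of 2.78 against 8.01 to 10.76 for the other organs. Ass1, the urea cycle enzyme that the kidney uses to make arginine, had 1201 ± 425 TPM in the liver and 744 ± 180 TPM in the kidney. Acmsd, an enzyme of tryptophan breakdown, was lower in the liver than in the kidney, with 45.0 ± 23.1 against 253 ± 41.5 TPM (-1.75, edgeR adjusted p = 0.00267). It shares exon bases with another gene. Sdsl was the member of the list that was not called, at 0.75 (SE 0.35, edgeR adjusted p = 0.101).

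Genes of glucose production and sugar handling were higher in 18 of 18, with a median of 5.34, or 5.96 without spleen WT replicate 2, and in 7 of 18 against each organ (5.59% of all genes). The members of glucose output were shared with the kidney, which also releases glucose. G6pc, the last step of glucose release, had 625 ± 99.4 TPM in the liver and 657 ± 171 TPM in the kidney, and Pck1, an early step of glucose synthesis, 1305 ± 309 and 1772 ± 573 TPM. Gckr was restricted to the liver at 182 ± 64.1 TPM.

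Ketone body synthesis and fatty acid oxidation gave a smaller contrast, with 14 of 20 genes higher and a median of 2.43. Bdh1, which makes the ketone body beta-hydroxybutyrate, had 168, 372, 310, and 432 CPM in the livers. The other libraries had 5.7 to 162 CPM, with a median of 57.9 CPM, and did not overlap with the livers (log2 fold change 2.95, SE 0.20, edgeR adjusted p = 1.89e-08). The 6 genes that were not called were Acadm, Acadl, Acadvl, Hadha, Hadhb, and Acaa1a, all enzymes of the oxidation of fatty acids. Hadhb had 93.9 ± 10.8 TPM in the liver. Against the heart its log2 fold change was -2.78. In all, 5 of the 20 genes were lower in the liver than in the heart, a share near the 24.8% of all genes.

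Bile acid synthesis and bile transport were higher in 21 of 21, with a median of 8.31. Cyp8b1, which sets the ratio of cholic acid, had 92.3 ± 9.89 TPM in the liver and at most 1.76 TPM on average elsewhere. Slc10a1, the uptake carrier of bile acids, had 727 ± 58.6 TPM, and Abcb11, the bile salt export pump, 216 ± 61.2 TPM. The second highest organ mean was in the spleen for both, at 6.30 and 2.23 TPM, and at 1.11 and 0.358 TPM without the WT replicate 2 library.

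Of 48 P450 genes of drug and steroid metabolism, 46 were higher, with a median of 10.30, or 9.03 with the floor. The median was 14.57 against the heart, or 11.37 with the floor, and 7.62 against the small intestine, or 7.02 with the floor, where 6 of the 48 were lower in the liver, beside 27% of all genes. Cyp2e1, which oxidizes ethanol, had 3435, 8443, 4254, and 5112 CPM in the livers and at most 160 CPM elsewhere, in a kidney library. Cyp3a11, a main drug-metabolizing P450, had 2960 ± 417 TPM in the liver and 789 ± 882 TPM in the small intestine, which were not called different. The small intestine libraries differed widely, with P450 sums of 1919, 12263, 3144, and 11036 CPM in WT1, WT2, KO1, and KO2. A missing call against this organ is therefore not evidence of equal levels. Cyp2c65 showed the reverse of Cyp3a11, with 0.189 TPM in the liver and 537 TPM in the small intestine. Cyp2j5 had 906 ± 59.4 TPM in the liver and 2296 ± 303 TPM in the kidney. Conjugating enzymes were higher in 32 of 35, with a median of 5.59. Ugt2b1, a glucuronosyltransferase, had 685 ± 121 TPM in the liver and at most 3.94 TPM on average elsewhere. Gsta4, Gstm2, and Gstp1, which are glutathione transferases, were not called.

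Transcription factors of hepatocytes were higher in 27 of 29, with a median of 4.30, but were for the most part not restricted to the liver. Against the small intestine, 14 of 29 were higher and 2 lower, beside 19.3% and 27% of all genes, and the median was 1.24. Hnf4a, a nuclear receptor, had 217 ± 27 TPM in the liver, 313 ± 112 TPM in the small intestine, and 269 ± 39.4 TPM in the kidney, against 1.46 ± 1.98 TPM in the spleen and 0.0595 ± 0.0612 TPM in the heart. Cebpa was higher than in each organ, with 329, 336, 349, and 351 CPM in the livers and 3.61 to 25.5 CPM elsewhere (4.81, SE 0.18, edgeR adjusted p = 9.39e-11). It shares exon bases with a predicted gene. Onecut1 was a low-level restricted factor, with 8.49, 5.52, 19.5, and 10.5 CPM in the livers and 0 counts in 14 of the 16 other libraries.

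Hormones, growth hormone signalling, and iron control genes were higher in 25 of 26, with a median of 6.92. Igf1, the main effector of growth hormone, had 1317, 1864, 2416, and 1937 CPM in the livers and 7.18 to 68.6 CPM elsewhere (6.16, SE 0.21, edgeR adjusted p = 4.05e-11). Hamp, which codes for the iron hormone hepcidin, had 2377 ± 722 TPM in the liver. Elsewhere it had at most 18.9 TPM on average, in the spleen with WT replicate 2 included. Its copy Hamp2 is similar in sequence, so that reads could be split between them. Hjv, the co-receptor that sets hepcidin, had 92.0 ± 40.2 TPM in the liver and 240 ± 43.2 TPM in the heart (-0.81, edgeR adjusted p = 0.285). Bmp6, the ligand made by endothelial cells, had a log2 fold change of -0.77 and was not called.

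**Figure D3:**
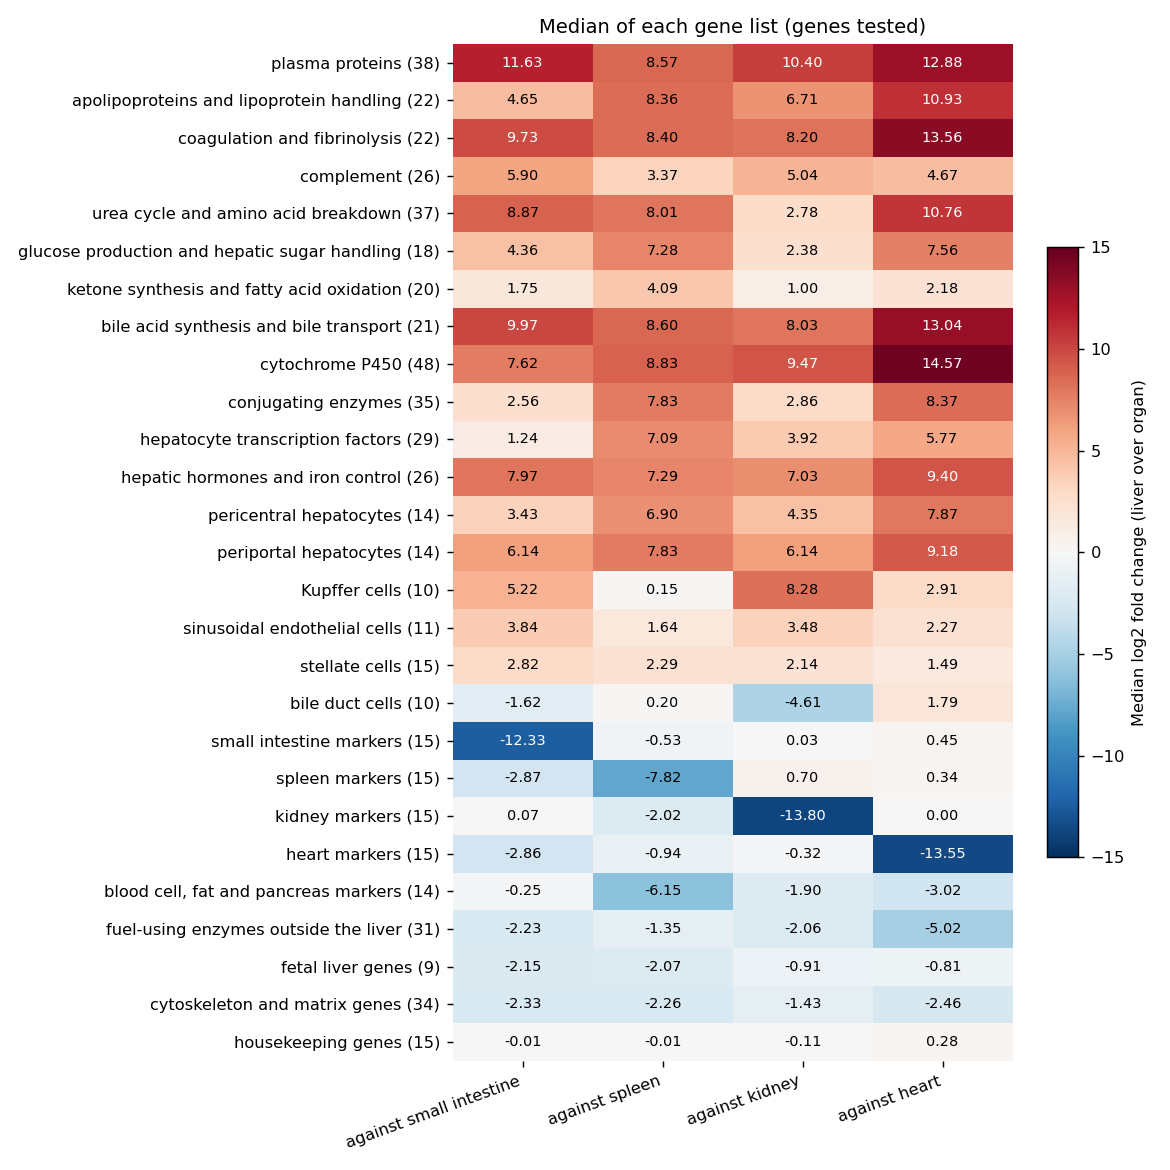
Median log2 fold change of each gene list in the liver against each of the 4 other organs, written in each cell and coloured from blue (lower in liver) to red (higher), with the number of genes tested in brackets. The lists of hepatocyte functions are red in all 4 columns, and each organ's own markers are blue in its own column, from -7.82 to -13.80.

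Markers of pericentral and of periportal hepatocytes were both present, each higher in 13 of 14. The median of the periportal list was 8.63, or 9.30 without spleen WT replicate 2. Among pericentral markers, Glul, which fixes ammonia in glutamine, had 388 ± 79.7 TPM in the liver and 472 ± 90.7 TPM in the kidney. Rgn and Lect2 were restricted to the liver, with 4110 ± 92.3 and 847 ± 126 TPM. Among periportal markers, Hal, which breaks down histidine, had 98.3 ± 33.9 TPM, and Cyp2f2 359 ± 72.8 TPM. The summed level of the periportal list was 15312, 12787, 9757, and 13256 CPM in liver WT1, WT2, KO1, and KO2, and that of the pericentral list 11371, 17310, 12268, and 14534 CPM.

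Cells other than hepatocytes were also seen. Kupffer cell markers were higher in 9 of 10 against the mean, with summed levels of 818 to 1030 CPM in the livers and 539 to 656 CPM in the spleen. The sums of the small intestine were 141, 2344, 63.4, and 1458 CPM, of which Slc40a1, the iron exporter ferroportin, held 135, 2336, 58.7, and 1445 CPM. Without Slc40a1, the member that was not called, the sums were 526 to 702 CPM in the livers, 240 to 297 CPM in the spleen, and at most 100 CPM elsewhere. Against the spleen, which has macrophages of its own, 4 of 10 were higher and 3 lower, beside 22.5% and 29.7% of all genes, and the median was 0.15. Clec4f, a lectin of Kupffer cells, had 173, 223, 270, and 212 CPM in the livers, 2.74 CPM in spleen WT replicate 2, and at most 0.331 CPM in the other libraries. Marco, a scavenger receptor, was lower in the liver than in the spleen, with 10.8 ± 1.21 against 133 ± 37.7 TPM (-2.39, edgeR adjusted p = 0.00723).

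Sinusoidal endothelial markers were higher in 11 of 11, with a median of 2.25 and summed levels of 530 to 621 CPM in the livers. Clec4g, a lectin of these cells, had 75.3 ± 16.7 TPM in the liver and 13.2 ± 1.98 TPM in the spleen. Stab2, which clears hyaluronan, had 11 ± 1.82 and 27.1 ± 5.73 TPM (-0.08, edgeR adjusted p = 0.909 against the spleen).

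Of 15 stellate cell markers, 10 were higher and 3 lower. Colec10, a collectin, had 41.1 ± 1.94 TPM and Reln 4.77 ± 0.816 TPM in the liver, both higher than in each organ. Those lower, Des, Pdgfra, and Pdgfrb, are also made by muscle or connective tissue cells, and Des had 2.74 ± 0.332 TPM in the liver and 877 ± 272 TPM in the heart.

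Bile duct markers were higher in 4 and lower in 5 of 10, with summed levels of 95 to 115 CPM in the livers. Krt19 and Epcam, which mark most epithelia, had 1.03 ± 0.772 and 1.06 ± 0.414 TPM in the liver, against 1060 ± 648 and 1454 ± 595 TPM in the small intestine. Spp1 had 64.2 ± 9.77 TPM in the liver and 5941 ± 785 TPM in the kidney.

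Markers of the other organs were low in the liver. Against the small intestine, 14 of 15 of its markers were lower in the liver (background 27%), with a median of -12.33. All 15 spleen markers were lower than in the spleen (background 29.7%), 14 of 15 kidney markers lower than in the kidney (21.1%), and all 15 heart markers lower than in the heart (24.8%), with medians of -7.82, -13.80, and -13.55. With the floor of 3 counts for groups at 0, the medians for intestinal, spleen, kidney, and heart markers were -11.06, -7.69, -11.30, and -13.37. Summed levels in liver WT1, WT2, KO1, and KO2 were 218, 357, 235, and 302 CPM for intestinal markers. They were 28.4 to 71.7 CPM for kidney markers, 48.9 to 60.7 CPM for spleen markers, and 6.69 to 38.9 CPM for heart markers.

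A single gene made up most of several of these sums. Fabp2, a fatty acid binding protein, was the most abundant intestinal marker in the liver, with 352 ± 63.5 TPM against 22786 ± 4762 TPM in the small intestine. Lgr5, the intestinal marker that was higher in the liver than in the small intestine, is also on the pericentral list. Atp6v0d2 led the kidney markers in the liver with 28.6 ± 13.8 TPM and was not called against the kidney, which had 74.8 ± 12.5 TPM. Lct, Cdx2, Chga, Tlx1, Aqp2, Nphs1, Pax2, Nppa, Nppb, and Nkx2-5 had no count in any liver library. Blood cell, fat, and pancreas markers summed to 479 to 723 CPM in the livers, led by the hemoglobin gene Hbb-bs with 821 ± 285 TPM against 48736 ± 23402 TPM in the spleen. The pancreas genes Cpa1, Pnlip, Ins2, and Amy2a5 had no count in the livers.

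Genes that the liver lacks were sought by the mirror rule, with the lowest of the 16 other libraries at least 1 CPM and at least 10 times the highest liver library. The rule gave 8 genes, which is 0.0776% of the 10308 genes with at least 1 CPM in all 16 other libraries. This share cannot be set against the 2.69% of the restricted genes. A lacked gene must be high in all 16 libraries of 4 organs, and a restricted gene only in the 4 livers. Leaving out spleen WT replicate 2 gave 9 genes, including these 8. Of the genes with at least 1 CPM in all 16 other libraries, 10021 also had at least 1 CPM in all 4 livers. The count depends on the scaling, with 27 genes when scaled by library totals alone and 25 by TPM. The values chose these genes, which are described without a test. Just inside the limit stood Scrn1 and Strip2, with ratios of 10.72 and 10.74, and just outside it Cd63-ps and Bend5, with ratios of 9.627 and 9.524.

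Acss1, the mitochondrial enzyme that activates acetate for oxidation, had the highest ratio among the lacked genes with a count in a liver library. It had 0.632, 0.424, 0.097, and 0.331 CPM in the livers and 60.8 to 335 CPM elsewhere, with a median of 215 CPM, and the lowest other library had 96.3 times the highest liver library. Its means were 188 TPM in the kidney and 190 TPM in the heart. Acss1 shares exon bases with a neighbouring gene.

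Acta2, the actin of smooth muscle and activated stellate cells, had 0.909, 1.11, 0.582, and 0.994 CPM in the livers and 12.8 to 406 CPM elsewhere. Pip5k1b, a phosphoinositide kinase, had no count in the 4 livers and 4.89 to 82.5 CPM elsewhere, and was the 1 gene left when a ratio of 100 times was required. Cpe, a carboxypeptidase that processes peptide hormones, had 0.194 to 0.948 CPM in the livers and 10.4 to 265 CPM elsewhere. Cdh11, a cadherin of mesenchymal cells, had 0.243 to 0.371 CPM against 5.52 to 29.5 CPM. Lrrc1, a scaffold protein of epithelia, had 0.194 to 0.79 CPM against 9.67 to 105 CPM. Strip2 and Scrn1 had at most 0.316 and 0.106 CPM in the livers, and at least 3.39 and 1.14 CPM elsewhere.

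**Figure D4:**
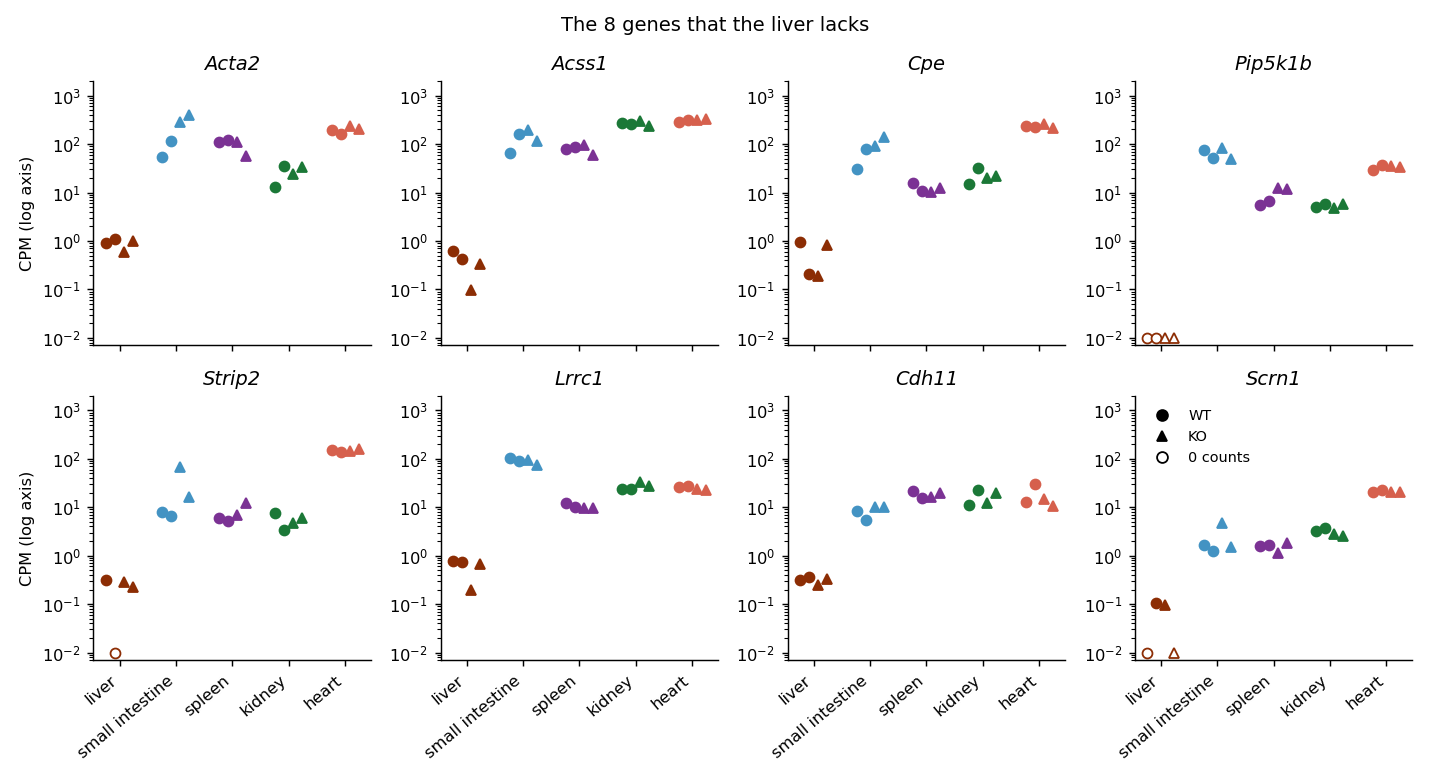
CPM of the 8 genes that the liver lacks in each of the 20 libraries, on a log axis, with circles for WT, triangles for KO, and open symbols at the foot of the axis for 0 counts. All liver points lie below all others, and Pip5k1b has no count in a liver. Acss1 has the livers at 0.097 to 0.632 CPM and the other libraries at 60.8 to 335 CPM.

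Enzymes that other organs use for ketone bodies, branched-chain amino acids, and glucose were lower in the liver in 22 of 31, against 18.2% of all genes, and higher in 3, with a median of -3.08. In 11 of 31 they were lower than in each organ, against 5.35% of all genes. Oxct1, without which a cell cannot burn ketone bodies, had 9.48, 8.54, 8.68, and 8.76 CPM in the livers. The other libraries had 78.1 to 2683 CPM, with a median of 1183 CPM (log2 fold change -6.25, SE 0.35, edgeR adjusted p = 3.85e-09). Oxct1 had 1443 ± 52.0 TPM in the kidney and 1520 ± 92.1 TPM in the heart. Oxct1 shares exon bases with another gene.

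Among glucose enzymes, Hk1 (a hexokinase) and Pkm (a pyruvate kinase) were lower than in each organ. Pkm had 16.9, 13.5, 17.1, and 17.8 CPM in the livers and 113 to 1193 CPM elsewhere. Ldhb, the lactate dehydrogenase of heart and kidney, had 4.43 ± 2.47 TPM in the liver and 4435 ± 492 TPM in the heart, and was not called against the spleen. Hk3, Aldoc, and Acacb went the other way against the mean, with log2 fold changes of 1.97, 1.72, and 2.59. Acacb, an acetyl-CoA carboxylase of mitochondria, had 20 ± 9.47 TPM in the liver and 54.6 ± 26.8 TPM in the heart. The branched-chain transaminase Bcat1 had no count in the livers, and Bcat2 had a log2 fold change of 0.21 (edgeR adjusted p = 0.548).

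The 15 pairs of enzymes with a liver form and a form of other tissues were compared by the share of the liver form in the TPM of the pair. In 9 pairs, all 4 liver libraries had a higher share than all 16 others. Pklr held 93.3% to 96.9% of the pyruvate kinase pair in the livers and at most 43.1% elsewhere, although its level was similar in the liver and the small intestine, with 105 ± 17.2 and 130 ± 41.6 TPM.

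Glutamine and methionine enzymes also separated the liver from all other libraries. Gls2 held 98.9% to 99.3% of the glutaminase pair in the livers and at most 14.4% elsewhere, in spleen WT replicate 2, and 7.13% without that library. Mat1a held 96.2% to 97.6% of the pair with Mat2a in the livers and at most 16.4% elsewhere, also in spleen WT replicate 2, and 1.44% without it. Mat2a itself, the form of other tissues, had 69.4 ± 19 TPM in the liver and was not called, beside 2118 ± 455 TPM of Mat1a. In glycogen synthesis, Gys2 held 98.3% to 99.7% in the livers and 36.8% to 69.6% in the kidney.

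Other pairs overlapped between organs. Fbp1 held 99.9% to 100% of its pair in the livers and 95.0% to 97.4% in the kidney, and reached 100% in a spleen library. The livers had 37.9% to 51.7% of Pfkl in the pair with Pfkm, which overlapped with the spleen at 37.5% to 49.7%.

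**Figure D5:**
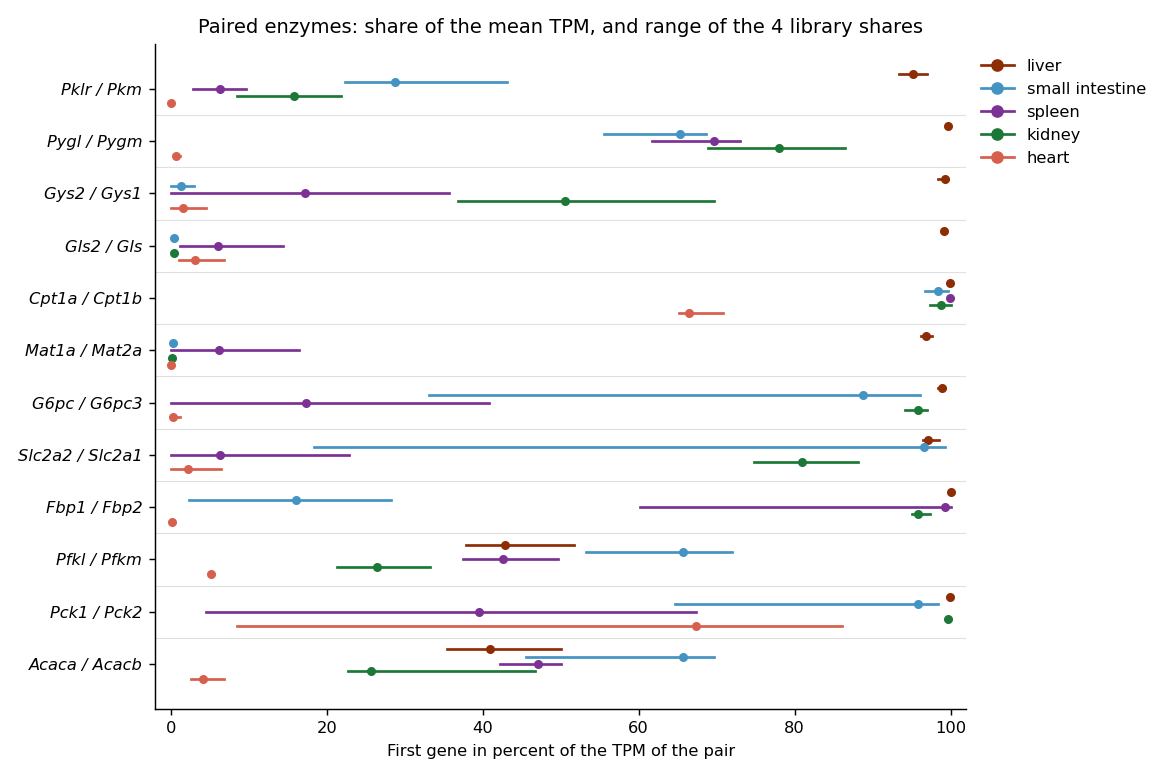
Share of the enzyme named first in the TPM of each of 12 pairs, in percent, with a point for the share of the mean TPM of an organ and a line for the range of its 4 libraries. The liver lies at 95.1% or above in 10 of the 12 pairs shown and near the middle of the axis for Pfkl and Acaca.

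Genes of the cytoskeleton and the matrix were lower in 27 of 34, with a median of -2.07, and lower than in each organ in 13, against 5.35% of all genes. Actb (beta actin) had 181 ± 35.9 TPM in the liver, 2996 ± 471 TPM in the small intestine, and 3498 ± 979 TPM in the spleen, and was not called against the kidney or the heart. S100a6, a calcium-binding protein, had 2.73, 1.06, 0.825, and 1.51 CPM in the livers and 17.5 to 250 CPM elsewhere (-5.49, SE 0.60, edgeR adjusted p = 4.65e-06). Cav1 (caveolin), Col1a1 (a chain of collagen I), and Tmsb10 (a thymosin that binds actin) were also lower than in each organ. Fn1 went the other way. It codes for fibronectin, which hepatocytes release into plasma, and had 998, 951, 884, and 895 CPM in the livers against 10.3 to 74.3 CPM elsewhere (4.73, SE 0.22, edgeR adjusted p = 5.79e-10).

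Of 9 fetal liver genes tested, 2 were higher and 2 lower, and the median of -2.22 moved to -0.24 with the floor of 3 counts. Afp (alpha-fetoprotein) had 5.34 ± 2.15 TPM in the liver and 13.8 ± 16.4 TPM in the small intestine. Among the single organs it was called higher against the heart, with 0.00524 TPM, and was not called against the others. Igf2 and Lin28b had no count in the livers. The calls of H19 and Afp rest on low levels, and H19 changed sign with the unit.

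Housekeeping genes give a measure of the scaling. Of 15, 2 were higher, 1 was lower, and 12 were not called, with a median of 0.07. B2m, the light chain of class I histocompatibility molecules, was higher (1.40) and Rplp0, a ribosomal protein, lower (-1.05, edgeR adjusted p = 0.00848). With scaling by library totals alone, 0 were higher and 5 lower, and the median was -0.70, so that the direction of this group depends on the scaling. Gene lists of hepatocyte functions kept a positive median under it, for example 9.75 for plasma proteins and 9.51 for P450 genes.

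Whether the difference between the liver and the other organs depends on the genotype was tested as an interaction. None of the 23159 genes was called in either direction by edgeR (0% and 0%), with 206 higher and 260 lower at an unadjusted p under 0.05 and a smallest adjusted p of 0.372. By DESeq2, 4 genes were higher and 12 lower, and by limma on TPM 2 were higher and 1 lower. By edgeR with no filter on low counts, 66 were higher and 57 lower. With 2 libraries in each group, small effects could not be detected, and larger ones could also go uncalled. The log2 interaction was 1.64 (SE 0.31) for Csad and 2.32 (SE 0.50) for Hspb1, and neither was called.

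The genes with the smallest p gave the following levels. Csad, an enzyme of taurine synthesis that shares exon bases with Zfp740, had 29.9 and 27.6 CPM in WT and 91.9 and 84.8 CPM in KO livers, which did not overlap (edgeR adjusted p = 0.526). Hspb1, a small heat shock protein, had 3.71 and 4.67 CPM in WT and 19.6 and 33.8 CPM in KO livers. Col4a4 and Col4a3, chains of collagen IV, had 1.94 and 2.33 CPM and 10.7 and 6.95 CPM in WT livers, and 0.194 and 0.368 CPM and 1.65 and 2.39 CPM in KO livers. Casq2, a calcium store protein of heart muscle, had 0.711 and 0.53 CPM in WT and 0 in KO livers, beside the higher heart marker sum of liver WT replicate 1, whose part in this was not tested. Ccdc92, Tmem108, Ndrg4, Fgf9, and 4930592C13Rik, also among the smallest p in their direction, had at most 1.34 CPM in a liver library. Over the 344 restricted genes, the median log2 ratio of KO to WT livers was 0.15, with 13 genes over 2-fold higher and 9 over 2-fold lower in KO. The share of all genes past 2-fold was not computed, so these counts are no result about the restricted genes. Without liver WT replicate 1, which leaves 1 WT liver library, the median was 0.03. The median coefficient of variation over the 4 livers was 24%.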

How the data were processed

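Poly(A) RNA from 5 mouse tissues was sequenced in 20 stranded libraries. Per the file headers and the labels, the authors trimmed reads with cutadapt, aligned them to mm10 with HISAT2 2.1.0, and made the deposited table of raw counts per gene with featureCounts 2.0.1 on Ensembl exons. The methods state options for strand and read pairs that the stored command does not show. Even numbers made up 54.9% to 59.8% of the counts of low genes, so that the mates of a pair add to a gene's count separately in many cases. Without strand, reads from a gene and an overlapping partner cannot be told apart. The deposited exon length per gene was used for TPM. All sample columns were used, and none held comparisons by the authors.

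Samples were grouped by tissue and genotype as labelled. Counts of 23159 genes kept by filterByExpr, out of 55401, were fitted in 10 groups with edgeR 4.0.16 (R 4.3.3; TMM, robust quasi-likelihood test, Benjamini-Hochberg adjustment, prior count 2). Calls needed an adjusted p under 0.1 and a difference of over 2-fold. The spread was estimated with 10 residual degrees of freedom, at a common biological coefficient of variation of 0.438. The mean of the 4 organs is a mean of log2 levels, so that a gene high in a single other organ and near 0 in the rest could be called higher in the liver. For 2971 tested genes, a liver group and another group were at 0. The counts of calls against the mean include these genes, whose fold changes against the mean can be very imprecise. For example, 4930592C13Rik had a log2 fold change of -1.12 with an SE of 1734.68. The scripts were tested on simulated counts. Alternatives used DESeq2 1.42.0, limma 3.58.1 on log2(TPM + 0.1), other scaling, filters, thresholds, and samples. Depth, from 15897446 to 44508197 counts, limits genes near 1 CPM.

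The members and gene lists were chosen with earlier results of these data known. The genes named were the 3 markers, Nsun6, the 15 restricted and lacked genes with the highest TPM (8 lacked genes exist), the 5 highest ratios, the 5 smallest interaction p-values in each direction, and members of the 27 lists and 15 enzyme pairs, without the 107 symbols found more than once. Genes outside this rule are marked where named. Figures were drawn with matplotlib 3.10.9. Some members of the lists and pairs are counted but not reported by name here.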

Additional observations from a re-analysis of the deposited data

Results flagged for a closer look

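Of 49 groups of 4 libraries tested, 7 held a library far from the other 3, where chance gives about 1 in 20. The groups share libraries and are not independent, and 4 of the 7 restate the liver transcripts of 1 library, so the count is not evidence in itself. Spleen WT replicate 2 stood apart for liver transcripts, with Alb at 2685 CPM (3.68 to 136 CPM in the other spleens), Apoa2 at 174 CPM (0.594 to 8.12), and Ttr at 136 CPM (0.517 to 6.66). The median level of the liver-restricted genes in that library was 1.3% of the liver mean, against 0.00624% to 0.0937% in the other spleens.

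Liver WT replicate 1 stood apart from the other livers for Serpina3k, at 8576 CPM (26644 to 28344), and for Ahsg, at 4953 CPM (8781 to 9557). In the small intestine, Alb was highest in WT replicate 1, at 54.8 CPM (7.83 to 15.6 in the others). The causes of these differences were not tested.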

How the results depend on the processing

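Scaling by library totals alone gave 2472 genes higher and 7840 lower against the mean of the 4 organs, 2941 higher against the small intestine, 2857 higher and 12260 lower against the spleen, 1918 higher and 8654 lower against the kidney, and 2467 lower than in each organ. With limma on log2(TPM + 0.1), the same counts were 2335 and 10407 (mean), 2866 (small intestine), 2783 and 12235 (spleen), 1887 and 7999 (kidney), and 1915 (each). A fold change over 4 left 2333 higher and 2627 lower (mean), 2591 (small intestine), 3321 (spleen), 1984 (kidney), and 3009 (heart) higher, and 795 lower than in each. WT samples alone gave 3151 genes lower against the kidney and 639 lower than in each. KO samples alone, with as many libraries, gave 3979 and 989. The interaction with genotype, with 0 calls by edgeR, had 4 higher and 12 lower by DESeq2, 66 and 57 with no filter on low counts, and 2 and 1 by limma. Under limma on TPM, Cyp4a12b and H19 reversed, with log2 fold changes of -0.32 and -0.03 against 2.43 and 1.46. Apart from the scaling stated, the cause was not tested.

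Restricted genes numbered 23 at 100 times. Lacked genes numbered 35 at 5 times, 2 at 20 times, 1 at 100 times, 5 at a minimum of 5 CPM, 27 by library totals, 25 by TPM, 19 in WT alone, and 47 in KO alone.

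Leaving out each library in turn gave 3581 to 3982 genes higher and 3808 to 4211 lower (mean), 344 to 369 restricted, 8 to 12 lacked, and 0 higher and 0 to 2 lower in the interaction. The highest lacked count came without small intestine WT replicate 2 and also without liver WT replicate 1, and the 2 interaction calls without small intestine KO replicate 2. Without spleen WT replicate 2, the mean contrast had 3790 higher and 4113 lower, and that against the spleen 5038 and 6555.

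With the replicate block within genotype, 3770 genes were higher and 4151 lower against the mean, of which 3730 and 4102 were shared, and no count of calls moved by over 1.5 times. Over 20 pairs of same-numbered libraries, the correlation of deviations ranged from -0.0926 to 0.264, with 9 over 0.1. Liver, spleen, and kidney correlated with each other at 0.110 to 0.264 in both genotypes. The main fit did not pair the libraries by number, and the counts with such a block are those above. Whether same-numbered tissues share an animal is not stated.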
